A study of Homo sapiens with 4 samples.

Results

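The genes described here are antisense lncRNAs, long noncoding RNA genes whose symbol is that of another gene followed by -AS and a number. They were chosen by biotype, by symbol and by the mean normalized count over all 4 libraries, which had to be at least 100. Of 51740 rows in the deposited table, 1498 were antisense lncRNA genes by name, 826 of these were tested, and 216 passed the minimum mean. The mean is the measured value that selected them, so it is given only as a description: it ran from 102 to 4252, with a median of 236. In both fractions the mean was at least 100 for 107 genes, in the nuclear fraction alone for 82 and in the cytoplasmic fraction alone for 27. A gene of the last 2 kinds was included through the fraction in which it was high, so counts over the 216 genes describe them and are not support for a direction.

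An antisense lncRNA is transcribed from the strand opposite to a neighbouring gene, its sense gene, and the pair may share a promoter region, overlap at their ends, or lie one within the other. Some antisense RNAs stay at the chromatin where they are made, others are exported like mRNAs, and a few carry small RNAs in their introns or exons. A primary transcript is held in the nucleus until it is spliced and exported, and RNAs that are poorly spliced or quickly degraded by the nuclear exosome are usually more abundant there.

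HEK293T cells, a line derived from human embryonic kidney that carries the SV40 large T antigen, were wildtype, were crosslinked with formaldehyde and were separated into nuclear and cytoplasmic fractions. The lysis buffers contained EDTA and NP-40 and no MgCl2. There were 2 biological replicates of each fraction, 4 libraries in all, and every library started from 400 ng of RNA and a stranded ribodepletion kit. The comparison asked where in the cell each RNA resides. Because the RNA mass was equal, a value is relative to the other RNA of its fraction. A larger value cannot be told apart from a smaller amount of all other RNA in that fraction.

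Every gene in the text has a log2 fold change of cytoplasm over nucleus, taken with its standard error (SE) and adjusted p from the deposited DESeq2 test. Negative values mean a larger normalized count in the nuclear fraction. This scale is not that of shares of a library: with equal library totals every log2 fold change is lower by 0.66. A small positive value can therefore be a smaller share of the cytoplasmic library. A gene was called at an adjusted p of at most 0.01. Counts of single libraries were recovered from the deposited means for all 216 genes, and each library is known by its fraction and by its depth, not by its replicate number. Size factors were 1.34 and 1.19 for the deeper and the shallower nuclear library and 0.853 and 0.755 for the cytoplasmic ones. Together the 216 genes held 206257 and 172289 counts in the nuclear libraries and 46263 and 40526 counts in the cytoplasmic libraries. Library values below are counts divided by the size factor, with the deeper library first. The nuclear RNAs MALAT1 and NEAT1 had log2 fold changes of -3.47 and -3.09. Means of the HEK293 markers VIM, NEFL, NEFM, LIN28B and IGF2BP1 ran from 3376 to 18261 and that of PAX2 was 63.1, whereas ALB, HBB, COL1A2, PTPRC and PECAM1, markers of other cell types, had means of 0.293 to 6.22.

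Of the 216 antisense lncRNA genes, 143 (66.2%) were called higher in the nuclear fraction, 37 (17.1%) higher in the cytoplasmic fraction and 36 in neither. Over all 23333 tested genes the shares were 26.5% nuclear and 25.9% cytoplasmic, and among the 804 tested lncRNA genes with a mean of at least 100 they were 70.4% nuclear and 16.5% cytoplasmic. The 804 genes include the 216 antisense genes, and of the other 588, 71.9% were nuclear and 16.3% cytoplasmic. The shares of the antisense genes were thus close to those of the other lncRNA genes. The part of gene span in the smaller nuclear share was not tested. The median log2 fold change of the antisense genes was -1.66, beside -2.43 for these 588 genes. It was -2.24 for all lncRNA genes with a mean of at least 100 and 0.25 for protein-coding genes with such a mean. For the 45 lncRNA genes named as divergent transcripts (-DT) the median was -1.71, and for the 108 genes named LINC and a number it was -3.06. Nuclear calls among the antisense genes had a median fold change of 6.04, with 98 of 143 over 4-fold and 37 over 10-fold. Cytoplasmic calls were smaller, with a median fold change of 3.45, 15 of 37 over 4-fold and 0 over 10-fold.

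**Figure D1:**
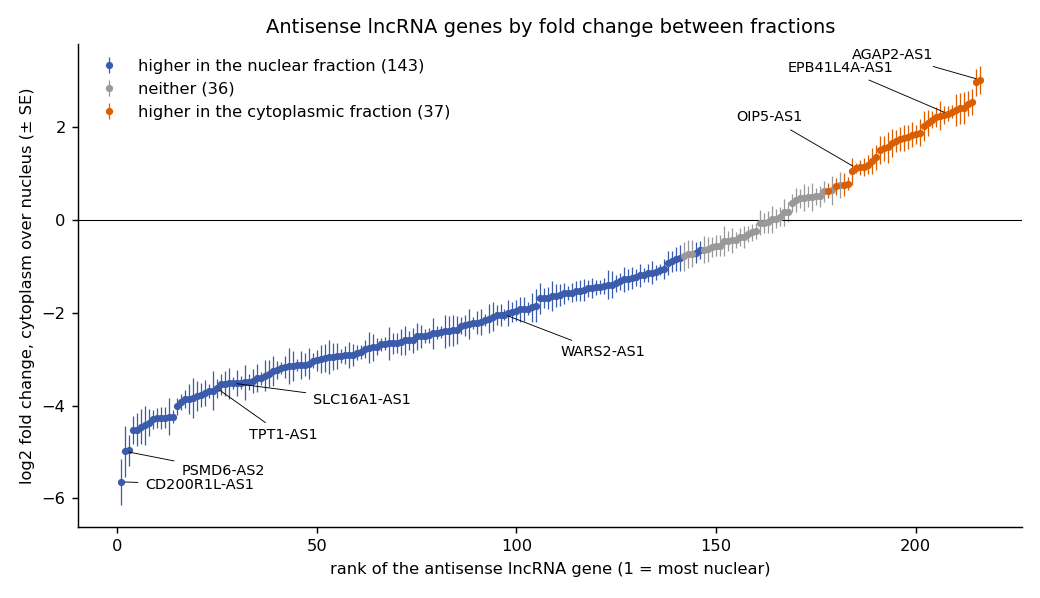
Log2 fold change of cytoplasm over nucleus on the vertical axis for each of the 216 antisense lncRNA genes, ranked on the horizontal axis from the most nuclear to the most cytoplasmic, with bars of 1 SE. The values run from -5.64 for CD200R1L-AS1 to 3.03 for AGAP2-AS1, and 143 genes are called nuclear against 37 cytoplasmic.

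Libraries of the same fraction were close to each other. The median gap between both libraries of a fraction was 9.27% of the lower value for the nuclear and 12.7% for the cytoplasmic libraries. The fractions did not overlap for 209 of the 216 genes, beside 93.6% of the 12390 genes with a mean of at least 100 and recovered counts. The other 7 genes were NNT-AS1, LBX1-AS1, PXN-AS1, ADIRF-AS1, ZBED5-AS1, PSMG3-AS1 and TMEM44-AS1, which are named here because their number is small, and their log2 fold changes lay between -0.06 and 0.17. LBX1-AS1 stood at 339 and 270 in the nuclear libraries and at 324 and 261 in the cytoplasmic libraries. PSMG3-AS1 was at 137 and 123 in the nucleus and at 177 and 114 in the cytoplasm. The sense genes of both, the transcription factor gene LBX1 (log2 fold change 3.07, SE 0.26) and the proteasome assembly gene PSMG3 (2.52, SE 0.16), were called cytoplasmic.

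Most of the 10 antisense lncRNAs with the highest means were nuclear. WARS2-AS1, opposite the gene of the mitochondrial tryptophanyl-tRNA synthetase, had the highest mean and stood at 7104 and 6572 in the nuclear libraries and at 1583 and 1749 in the cytoplasmic ones, 4.11-fold higher in the nucleus. SLC16A1-AS1, opposite the gene of a monocarboxylate transporter, was at 6579 and 6044 in the nucleus against 606 and 494 in the cytoplasm. STX18-AS1, beside the gene of an endoplasmic reticulum syntaxin, was at 6064 and 5042 against 524 and 452. In these 3 genes the lower nuclear library was more than 3 times the higher cytoplasmic one. TTN-AS1, which overlaps the titin gene tail to tail, had 6083 and 5150 in the nuclear and 794 and 965 in the cytoplasmic libraries. TRAF3IP2-AS1, opposite the gene of an adaptor of interleukin-17 signalling, was at 3515 and 3554 against 399 and 375. NUTM2B-AS1 and NUTM2A-AS1 lie around 2 related genes of chromosome 10 and had similar log2 fold changes of -2.41 (SE 0.13) and -2.15 (SE 0.13), but related genes of this family may share reads. ENTPD1-AS1, which overlaps the gene of an ectonucleotidase, had the smallest difference among the 9 nuclear genes of the 10: it was at 4698 and 4468 in the nucleus and at 2125 and 2246 in the cytoplasm, 2.1-fold higher in the nucleus.

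OIP5-AS1 was the 1 gene of these 10 that was higher in the cytoplasmic fraction. This RNA, also called Cyrano, is known for a conserved site that pairs with the microRNA miR-7 beyond its seed. It had 2084 and 2245 in the nuclear libraries and 4714 and 4742 in the cytoplasmic libraries, a 2.18-fold difference (log2 fold change 1.13, SE 0.11, DESeq2 adjusted p = 1.43e-23). All cytoplasmic values lay above all nuclear ones. The sense gene OIP5, which encodes a centromere protein, had a log2 fold change of 0.43 (SE 0.16) and a DESeq2 adjusted p of 0.0127, so it was not called. The miR-7 site and the microRNA are shown because this site is what the RNA is best known for, while miR-7 itself was not measured in these libraries. In the microRNA, the seed of bases 2 to 8 is in capitals. In the site, capitals mark the bases that can pair with the seed and with the first base of the microRNA, and the longest further run of 12 bases that can pair with the rest of the microRNA. The site lies in an exon of 12 of 72 annotated OIP5-AS1 transcripts, at chr15:41300576-41300599 on the plus strand of hg38. The microRNA sequence is from RefSeq and the site from the GENCODE transcripts.
hsa-miR-7-5p: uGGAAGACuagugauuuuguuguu
OIP5-AS1 site: CAACAAAATCACcaatGTCTTCCA

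The 8 called genes with the largest nuclear fold changes were CD200R1L-AS1, PSMD6-AS2, LIX1-AS1, FSIP2-AS1, SGO1-AS1, PGR-AS1, PDC-AS1 and KANSL1L-AS1. CD200R1L-AS1 (chromosome 3, 112802478 to 112812819, plus strand) had 370 and 315 in the nuclear libraries and 5.86 and 7.95 in the cytoplasmic libraries, 50.03-fold higher in the nucleus (DESeq2 adjusted p = 4.11e-29). Its sense gene, named for a receptor of the CD200 family, had a mean of 0.186 and was not tested. PSMD6-AS2 was at 194 and 202 against 4.69 and 7.95, a 31.7-fold difference that rests on 4 and 6 counts in the cytoplasmic libraries. LIX1-AS1 was at 594 and 532 in the nucleus and at 17.6 and 18.6 in the cytoplasm, or 31.2-fold higher in the nucleus. The remaining 5 genes were 20.7 to 23-fold higher in the nucleus, and their cytoplasmic values ran from 7.95 to 32.8. Among their sense genes, SGO1, which encodes the shugoshin that protects cohesion at the centromere, did not differ by more than its error (log2 fold change -0.01, SE 0.17). FSIP2, named for a protein of the sperm fibrous sheath, and KANSL1L were themselves nuclear, at -3.18 (SE 0.31) and -1.40 (SE 0.19). PDC, the gene of the photoreceptor protein phosducin, had a mean of 0, while PDC-AS1 was at 248 and 261 in the nucleus.

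In the cytoplasmic direction the 8 largest changes belonged to AGAP2-AS1, PITPNA-AS1, ATP2A1-AS1, MAP3K4-AS1, RNASEH1-AS1, EXOC3-AS1, ST20-AS1 and FGD5-AS1. AGAP2-AS1 (chromosome 12, 57726271 to 57728356, plus strand) lies inside the gene of an Arf GTPase activating protein and was at 28.3 and 38.7 in the nuclear and at 271 and 273 in the cytoplasmic libraries, 8.15-fold higher in the cytoplasm (DESeq2 adjusted p = 1.64e-23). PITPNA-AS1, at the end of the gene of a phosphatidylinositol transfer protein, had 38 and 39.5 against 345 and 262, a 7.84-fold difference. FGD5-AS1 was at 466 and 495 in the nucleus and at 2310 and 2560 in the cytoplasm, and its sense gene FGD5, which encodes a guanine nucleotide exchange factor, had a mean of 4.70. The other 5 genes were 5.19 to 5.85-fold higher in the cytoplasm. None of the 8 had overlapping fractions, which goes with their choice by a large fold change. The same held for 93.6% of all genes with a mean of at least 100 and recovered counts.

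**Figure D2:**
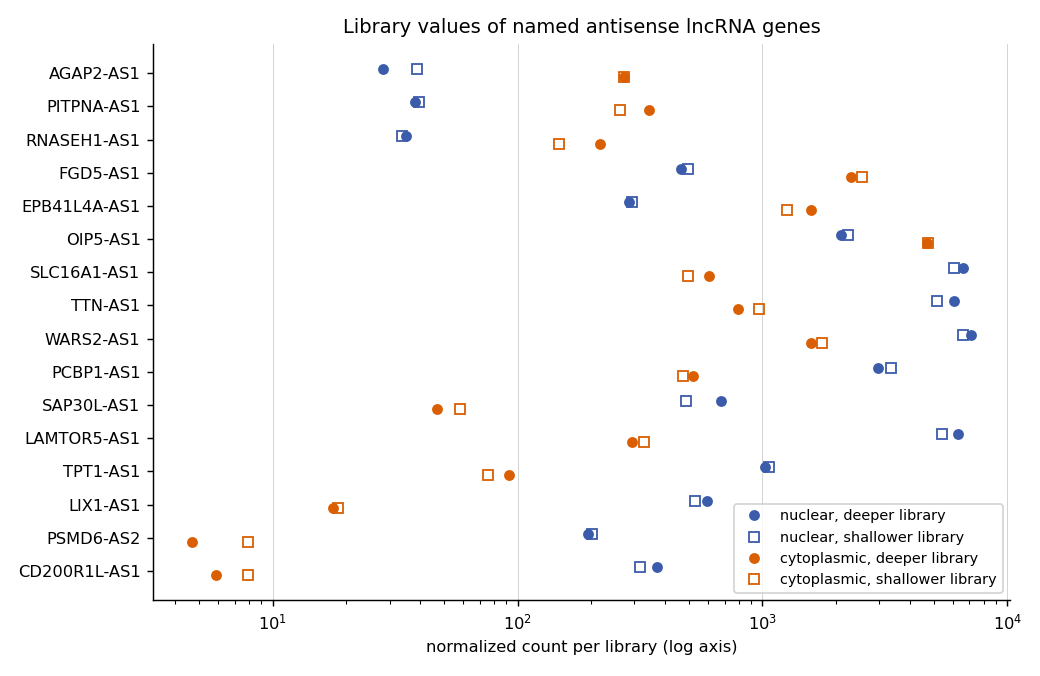
Normalized count in each library on a logarithmic axis for 16 named antisense lncRNA genes, with nuclear libraries in blue and cytoplasmic libraries in orange, and filled circles for the deeper and open squares for the shallower library of each fraction. Library pairs of a fraction sit close together. No gene shown has overlapping fractions, as was so for 209 of the 216 genes.

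A list of 30 antisense lncRNAs with a known role was set up for naming. The table held 28 of them, 11 had a mean under 100, and 17 were among the 216 genes. Of these 17, 8 were nuclear, 5 cytoplasmic and 4 not called. The shares were 66.2% nuclear and 17.1% cytoplasmic over the 216 genes, and 26.5% and 25.9% over all tested genes. EPB41L4A-AS1, which carries the gene of the small nucleolar RNA SNORA13 on its strand, was at 285 and 294 in the nucleus and at 1572 and 1266 in the cytoplasm, 4.9-fold higher in the cytoplasm. MAPKAPK5-AS1 had 107 and 115 against 534 and 533. LOXL1-AS1 was also called cytoplasmic, at 1.57 (SE 0.33), but with equal library totals it stood at 0.91 and missed the threshold. VPS9D1-AS1 (log2 fold change -1.13, SE 0.16), SBF2-AS1 (-0.89, SE 0.23) and ZNF337-AS1 (-2.51, SE 0.25) were nuclear. The 4 genes not called were ZEB1-AS1 at 0.62 (SE 0.23), PRKCQ-AS1 at 0.51 (SE 0.22), HOXA-AS2 at 0.49 (SE 0.29) and MCM3AP-AS1 at -0.43 (SE 0.17). Equal library totals turned the sign of ZEB1-AS1, PRKCQ-AS1 and HOXA-AS2.

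The sense gene was the gene whose symbol stands before the hyphen. It was in the table for 214 of the 216 genes, with 2 symbols not found as a gene (HOXA-AS2 and KRTAP5-AS1 are named for gene clusters), and was tested for 203. All 203 sense genes were protein-coding, and 34 had a mean under 100. By the deposited test, 71 (35.0%) were called cytoplasmic and 70 (34.5%) nuclear, with a median log2 fold change of 0.03. Of the 169 sense genes with a mean of at least 100, 39.1% were cytoplasmic and 38.5% nuclear. Among all 11385 protein-coding genes with such a mean, the shares were 45.0% and 33.0%, with a median of 0.25. With equal library totals, which lower every log2 fold change by 0.66, the split of the 203 sense genes was 41 cytoplasmic to 99 nuclear. Antisense and sense values were nearly unrelated across the 203 pairs (Spearman's rho 0.08, a description across genes that share the 4 libraries). The pairs include sense genes with a low mean and a large error, such as BBOX1 (mean 2.37, SE 2.06), which can weaken rho. How far they did was not tested. The antisense log2 fold change was lower than that of the sense gene by a median of 1.66, so the median difference was -1.66. The 99% interval of the difference lay below 0 in 116 pairs, above 0 in 39 and spanned 0 in 48. This difference does not depend on the scale between the fractions, and its interval takes both errors as independent, which was not tested. The kit kept strand, but the strand setting of the counting is not given in the sources used here, and how many reads of a gene come from its partner was not tested. The 13 antisense genes that lie inside their sense gene in GENCODE 44 had means of 112 to 854, and 5 of them were called opposite to the sense gene.

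Both genes were called in 115 pairs, in the same direction in 59 and in opposite directions in 56. Of the opposite pairs, 44 had a nuclear antisense RNA and a cytoplasmic sense RNA, and 12 the reverse. Of the pairs called in the same direction, 46 were nuclear and 13 cytoplasmic. These counts depend on how many antisense and how many sense genes were called in each direction. Whether they differ from those of unrelated pairs was not tested. With equal library totals the opposite pairs were 29 and 12 and the pairs in the same direction 71 nuclear and 6 cytoplasmic. The 8 opposite pairs with the largest difference all had a nuclear antisense RNA.

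TPT1-AS1 and TPT1, which encodes the translationally controlled tumor protein, differed the most. TPT1-AS1 was at 1028 and 1059 in the nuclear libraries and at 92.6 and 75.5 in the cytoplasmic libraries. TPT1 ran the other way, with 1125 and 1341 in the nucleus and 16700 and 14826 in the cytoplasm. The fractions overlapped for neither gene. The log2 fold changes were -3.63 (SE 0.20) and 3.68 (SE 0.12), a difference of -7.31 with a 99% interval from -7.91 to -6.71. PSMD6-AS2 and PSMD6, a subunit of the proteasome's regulatory particle, differed by -6.87 (99% interval -8.31 to -5.43), and PSMD6 was at 542 and 626 in the nucleus and at 2179 and 2116 in the cytoplasm.

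LAMTOR5-AS1 lies around LAMTOR5, the gene of a subunit of the Ragulator complex that tethers mTORC1 signalling to lysosomes. It was at 6282 and 5425 in the nuclear and at 294 and 327 in the cytoplasmic libraries, whereas LAMTOR5 was at 133 and 162 against 820 and 847. Both genes had libraries well apart between the fractions, in opposite directions, with a difference in log2 fold change of -6.73 (99% interval -7.32 to -6.15). SAP30L-AS1 was at 675 and 488 in the nucleus against 46.9 and 58.3 in the cytoplasm, and SAP30L, which encodes a protein of the Sin3 histone deacetylase complex, at 265 and 283 against 1216 and 1232. PRDX6-AS1 had 1074 and 832 against 148 and 129, and PRDX6, the gene of a peroxiredoxin, 1483 and 1673 against 9521 and 10477. PCBP1-AS1 was at 2970 and 3348 against 522 and 476, and PCBP1, an intronless gene of a poly(rC)-binding protein, at 411 and 452 against 2583 and 2450. The last 2 of the 8 were PGR-AS1 beside PGR, the progesterone receptor gene, with a difference of -5.12, and SIAH2-AS1 beside SIAH2, the gene of a ubiquitin ligase, with -5.10. With equal library totals PGR stood at 0.00 and was no longer called.

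**Figure D3:**
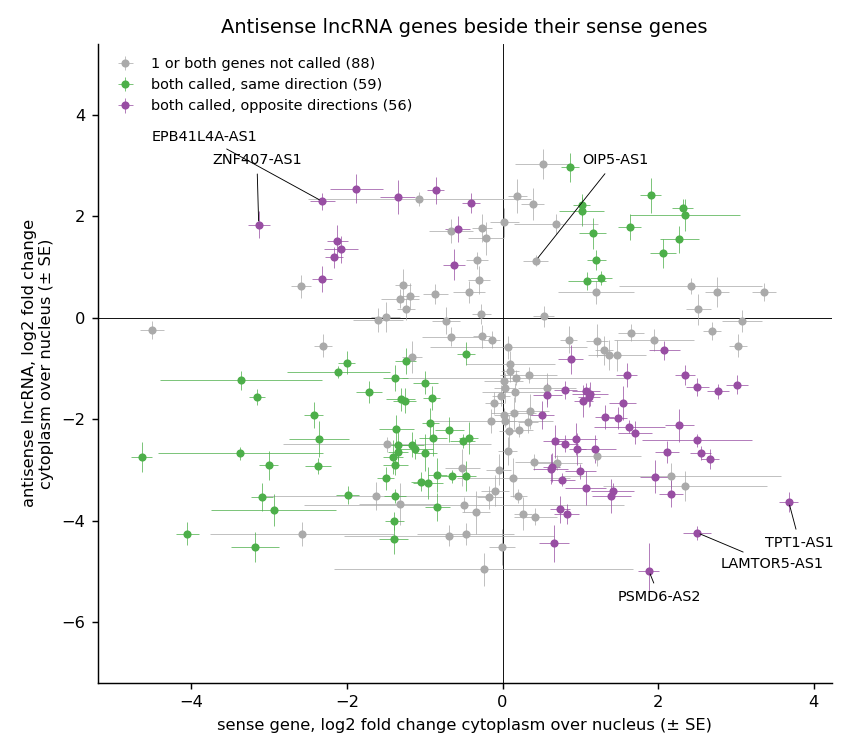
Log2 fold change of the sense gene on the horizontal axis and of its antisense lncRNA on the vertical axis for 203 pairs, with bars of 1 SE and colours for pairs called in the same direction (59), in opposite directions (56) or with at least 1 gene not called (88). Points fill all 4 quadrants, most densely the lower 2, and TPT1-AS1, PSMD6-AS2 and LAMTOR5-AS1 lie at the lower right.

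Among the 12 pairs with a cytoplasmic antisense and a nuclear sense RNA, 11 were head to head with overlapping ends. This class held 92 of the 216 genes and 19 of the 37 cytoplasmic ones. In 6 of the 12, the exons of all annotated transcripts of the antisense gene together leave no gap. This was so for 14 of the 216 genes, 11 of them cytoplasmic. EPB41L4A-AS1 was the 1 of the 12 that lay inside its sense gene. EPB41L4A, which encodes a protein of the band 4.1 family, was at 1292 and 1173 in the nucleus and at 227 and 269 in the cytoplasm. The difference in this pair was 4.61 (99% interval 4.02 to 5.2). The largest difference of the 12, in a pair named after its values were seen, was 4.97 (99% interval 4.19 to 5.75) for ZNF407-AS1, at 69.4 and 65.6 against 244 and 239, beside the zinc finger gene ZNF407, at 3285 and 2878 against 342 and 360. ATP2A1-AS1 and ATP2A1, the gene of a calcium pump of the sarcoplasmic reticulum, differed by 4.43, and ST20-AS1 and ST20 by 3.72. ZEB1-AS1, which was not called, differed from ZEB1, the gene of a repressor of epithelial genes, by 3.20 (99% interval 2.53 to 3.88), since ZEB1 was at -2.59 (SE 0.13).

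Positions were read from GENCODE 44 on hg38, the build of the deposited data in a later annotation than that used for counting. Of the 216 genes, 92 overlapped the sense gene head to head, 24 stood head to head with no overlap, 48 overlapped it tail to tail, 36 lay around it, 13 lay inside it, 1 stood beside it in another arrangement with no overlap, and 2 had no sense gene of that name. The share of nuclear calls was 80.6% for genes around the sense gene and 75% for tail-to-tail genes, beside 56.5% for overlapping and 62.5% for non-overlapping head-to-head genes and 69.2% for genes inside. Median log2 fold changes were -2.35, -1.88, -1.37, -1.38 and -1.64 in that order. These classes also differed in span, with a median of 100 kb for genes around the sense gene, 56.2 kb for tail-to-tail genes, 46.5 and 40.7 kb for overlapping and non-overlapping head-to-head genes and 7.65 kb for genes inside, and the part of span in the differences between classes was not tested. Cytoplasmic calls occurred in every one of these 5 classes, from 3 of 36 genes around the sense gene to 6 of 24 non-overlapping head-to-head genes. The table keeps 10 symbols that GENCODE 44 has changed to -DT, of which 9 were nuclear and RNASEH1-AS1 was cytoplasmic.

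**Figure D4:**
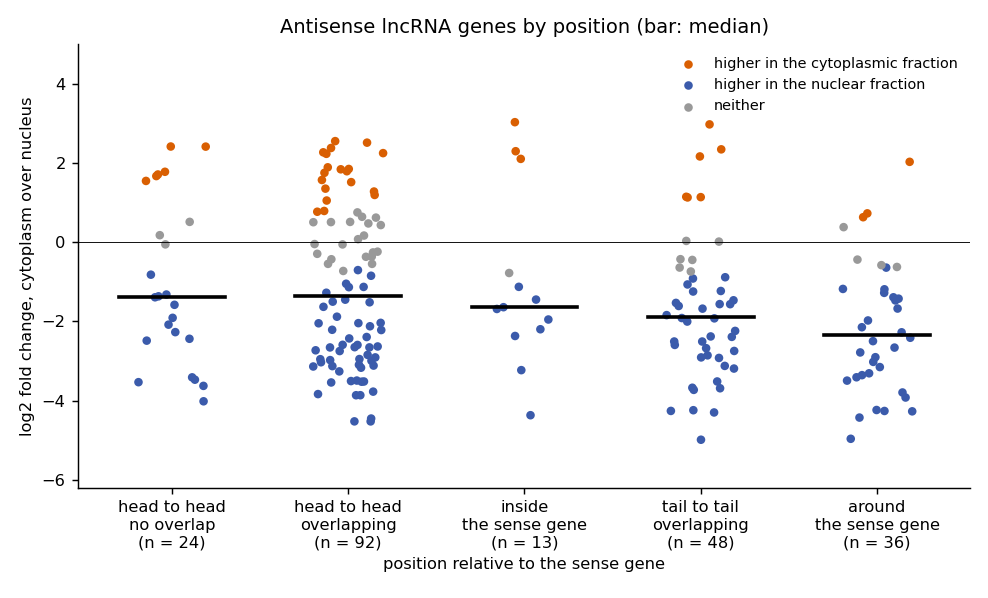
Log2 fold change of cytoplasm over nucleus for antisense lncRNA genes in 5 classes of position relative to the sense gene, 1 point per gene coloured by its call, with a bar at the median. The medians run from -1.37 for overlapping head-to-head genes to -2.35 for genes around the sense gene, and the ranges of all classes overlap.

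In the 24 head-to-head pairs with no overlap, the median distance between the annotated starts was 76 bases, so that a short stretch of DNA lies before both genes. Over all 203 tested pairs, 56 had opposite calls, 44 of them with a nuclear antisense RNA. Whether head-to-head pairs differ from the others in this was not tested. Opposite calls occurred in 8 of the 24 pairs, and all 8 had a nuclear antisense and a cytoplasmic sense RNA: TPT1-AS1, SAP30L-AS1, SRP14-AS1, EIF1B-AS1, UBL7-AS1, CCDC28A-AS1, SLC2A1-AS1 and ZNF561-AS1. With equal library totals 5 of the 8 stayed opposite, while CCDC28A, SLC2A1 and ZNF561 stood at 0.14, 0.01 and 0.21 and were not called. SRP14-AS1 was at 626 and 572 in the nucleus and at 253 and 225 in the cytoplasm, and SRP14, which encodes a protein of the signal recognition particle, at 309 and 385 against 2925 and 2656. UBL7-AS1 had 719 and 635 against 279 and 245, and UBL7, the gene of a ubiquitin-like protein, 409 and 413 against 2071 and 2592. For EIF1B-AS1 and ZNF561-AS1 the starts were 9 and 13 bases apart. The DNA between the starts of the other 6 pairs is shown so that the shared stretch can be read. Each run is from hg38, in the direction of the antisense gene. Capitals mark 4 motifs, found on either strand: a TATA box, searched as TATAAA, the pentamer that gives the CCAAT box its name, a GC box, searched with the letters GGGCGG, and the core of an ETS site, for which the letters were CGGAAG.
TPT1-AS1 and TPT1, chr13:45341285-45341344, plus strand: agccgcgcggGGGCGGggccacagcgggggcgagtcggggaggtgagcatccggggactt
SAP30L-AS1 and SAP30L, chr5:154445851-154445996, minus strand: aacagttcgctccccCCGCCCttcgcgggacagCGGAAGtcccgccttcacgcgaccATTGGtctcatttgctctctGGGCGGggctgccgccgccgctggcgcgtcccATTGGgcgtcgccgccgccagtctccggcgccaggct
SRP14-AS1 and SRP14, chr15:40039182-40039241, plus strand: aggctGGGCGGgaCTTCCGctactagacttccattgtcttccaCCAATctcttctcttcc
UBL7-AS1 and UBL7, chr15:74461183-74461247, plus strand: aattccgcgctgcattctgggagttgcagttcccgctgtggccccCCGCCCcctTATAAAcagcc
CCDC28A-AS1 and CCDC28A, chr6:138773653-138773768, minus strand: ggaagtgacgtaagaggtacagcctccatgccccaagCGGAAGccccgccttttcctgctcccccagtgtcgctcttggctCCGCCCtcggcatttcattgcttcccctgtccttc
SLC2A1-AS1 and SLC2A1, chr1:42958894-42959048, plus strand: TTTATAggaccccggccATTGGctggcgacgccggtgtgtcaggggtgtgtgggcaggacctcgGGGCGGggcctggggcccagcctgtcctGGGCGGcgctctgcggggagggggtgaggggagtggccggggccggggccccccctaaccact

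A GC box was present in all 6 stretches, with an ETS core in those of SAP30L, SRP14 and CCDC28A, a CCAAT box in those of SAP30L, SRP14 and SLC2A1, and a TATA box in those of UBL7 and SLC2A1. The stretch of TPT1 had the highest share of G and C, 78.3%, with 8 CpG dinucleotides in 60 bases, and that of SRP14 the lowest, 53.3%. RefSeq promoter windows of 300 bases were matched by symbol for 171 of the 216 genes. A GC box was found in 57.9% of these windows and in 44.9% of all 34943 promoter windows, and an ETS core in 34.5% and 19.4%. The sets are unlike: each matched gene gave a single window and had passed the minimum mean. The 34943 windows were limited neither by gene nor by expression in these cells. Their median was 14 CpG dinucleotides, beside 24 for the matched genes, and the part of this in the motif shares was not tested. CCAAT boxes were found in 33.9% and 34.6% and TATA boxes in 7.6% and 11.6%. Nuclear genes had a GC box in 60.4% of 111 windows and cytoplasmic genes in 54.8% of 31 windows, with a median of 24 and 25 CpG dinucleotides per window. Such matches are descriptions of letters and were not tested against any binding.

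The fold change went with the span of the gene. Antisense lncRNA genes spanned 1.23 to 1064 kb, with a median of 49.9 kb, and Spearman's rho between span and log2 fold change was -0.60 over the 216 genes, a description across genes, which are not independent replicates. The same measure was -0.68 over 581 other lncRNA genes with a mean of at least 100 and -0.73 over 11382 protein-coding genes with such a mean, so it is not particular to antisense genes. The genes were cut into 4 equal groups by span. In the shortest group, up to 15.7 kb, 26 of 54 genes were cytoplasmic and 17 nuclear, with a median of 0.57. In the next group 8 were cytoplasmic and 29 nuclear, in the third 2 and 45, and in the longest group, from 136 kb, 1 and 52, with a median of -2.90. Other lncRNA genes within the same bounds had 48.6% cytoplasmic calls in the shortest and 1.14% in the longest group, beside 48.1% and 1.85% of the antisense genes. In the second group 53.7% of the antisense and 76.7% of the other lncRNA genes were nuclear, with medians of -1.09 and -2.04, and in the longest group the medians were -2.90 and -3.94. Only SOX21-AS1, TENM3-AS1 and DHRS4-AS1, named after their values were seen, were cytoplasmic with a span over 50 kb. SOX21-AS1, opposite a transcription factor gene, was at 37.3 and 49.6 in the nucleus and at 181 and 172 in the cytoplasm. TENM3-AS1 spans 271 kb and was at 168 and 166 against 375 and 386, and with equal library totals it and DHRS4-AS1 missed the threshold. Introns were counted with exons, so that a gene's value holds unspliced RNA, and the part of intronic counts in this relation was not tested.

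Exonic length showed little relation with the fold change (rho -0.13), while the number of exon blocks (rho -0.48) and the share of the span outside them (rho -0.61) did. An exon block is a stretch covered by the union of a gene's exons, and the median gene had 6. The 14 genes with a single block had a median log2 fold change of 2.20. In these genes the exons of all annotated transcripts together leave no gap, and single transcripts may still be spliced. Of these, 11 were cytoplasmic, among them EPB41L4A-AS1, MAPKAPK5-AS1, MAP3K4-AS1, ATP2A1-AS1, ST20-AS1 and EXOC3-AS1. Among 57 other lncRNA genes with a single block and a mean of at least 100, 34 were cytoplasmic and 13 nuclear, with a median of 0.97. The exceptions among the 14, named after their values were seen, were GABPB1-AS1, ADAMTSL4-AS1 and FBXL19-AS1. GABPB1-AS1 is a block of 17.3 kb and was at 1773 and 1793 in the nucleus and at 340 and 321 in the cytoplasm. ADAMTSL4-AS1 spans 1.91 kb and was at 208 and 176 against 10.6 and 19.9. FBXL19-AS1 was not called, at 178 and 163 against 135 and 118, but was called nuclear with equal library totals (log2 fold change -1.09).

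**Figure D5:**
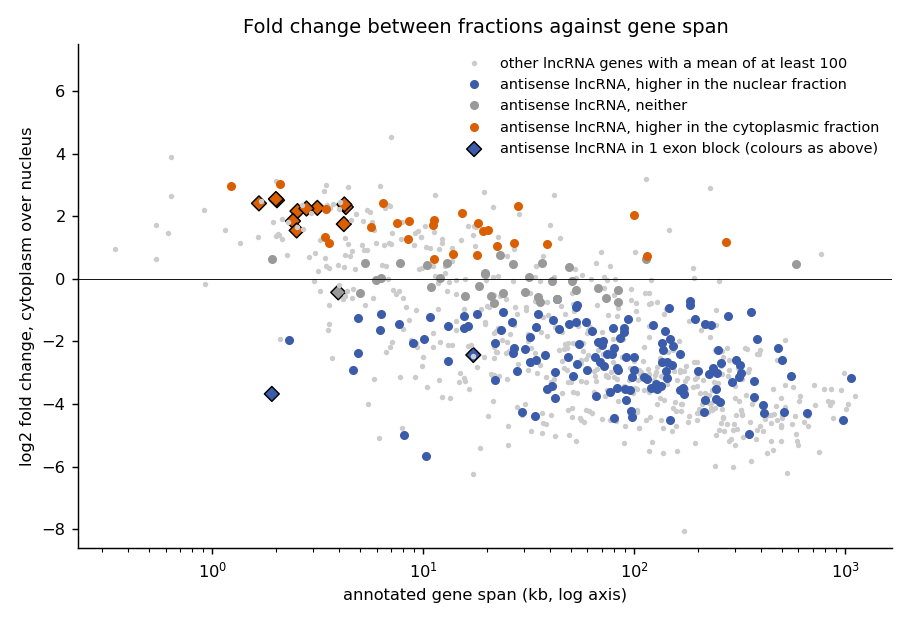
Log2 fold change of cytoplasm over nucleus against the annotated gene span in kb on a logarithmic axis, with antisense lncRNA genes coloured by call, single-block genes as diamonds and other lncRNA genes in pale grey. The points fall from mostly positive values at the shortest spans to negative values at the longest, and 11 of the 14 diamonds are cytoplasmic.

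Annotated genes of snoRNAs, microRNAs or other small nuclear RNAs, pseudogenes of these included, overlapped 15 of the antisense genes on the same strand. Of these 15, 13 (86.7%) were nuclear and EPB41L4A-AS1 was the 1 called cytoplasmic, beside 64.7% nuclear and 17.9% cytoplasmic of the 201 genes with none. Median log2 fold changes were -2.44 and -1.61, and the part of span in this was not tested. In 87 genes more than 50% of the span lies under another gene in GENCODE 44, and their nuclear share, 66.7%, was close to the 65.9% of the other 129. Stretches under more than 1 gene were removed from the annotation used for counting, which differs from GENCODE 44, and whether strand was considered in this step and how much of each gene was counted are not known here.

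Just inside the minimum mean were LOXL1-AS1 with a mean of 102 and a log2 fold change of 1.57, PARD6G-AS1 with 102 and -1.84, and PSMD6-AS2 with 102 and -4.99. Just outside were C8orf37-AS1 with 98.6 and -2.63, DNAJC27-AS1 with 98.6 and 0.89, and TRAM2-AS1 with 97.9 and 1.56. Among the 610 tested antisense lncRNA genes under the minimum, 102 were nuclear, 43 cytoplasmic and 465 not called, with a median of -0.49, and 672 more were not tested.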

How the data were processed

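RNA of nuclear and cytoplasmic fractions of HEK293T cells was sequenced in 2 libraries per fraction, with paired reads of 100 nt. The authors aligned reads to hg38 with STAR, counted them over exons and introns with featureCounts 2.0.2 (minimum overlap 20 bases, strand setting not given in the sources used here) on an extended GENCODE 34 annotation without stretches under more than 1 gene (whether by strand is not given in the sources used here), and ran DESeq2. The deposited mean normalized count is a signal pooled over all 4 libraries. Fold changes and standard errors were deposited on the log2 scale, beside a Wald score. From that test come the deposited p-value of each gene and its Benjamini-Hochberg form. These columns hold the study's own comparison and were used because the table has no column per library. They gave the calls, at an adjusted p of at most 0.01 over all 23333 tested genes.

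Library counts were recovered from the printed digits of the mean. A mean is a whole-number combination of 4 steps, 1 for each library, and the combination also had to give the deposited fold change within 2e-06 (log2), with the next best at least 10 times farther off. This gave 99.0% of the 15901 tested genes with a mean of at least 20, 516 of 627 above 5000, all 216 antisense lncRNA genes and 199 of 203 tested sense genes. Size factors recomputed as medians of ratios of the recovered counts differed from those given by the steps by -0.953% to 0.733%. Recovery and the fits were tested on simulated data. Precision was taken from the standard errors of the deposited test, which cover 2 libraries per fraction, and counts as low as 4 stand behind the lowest cytoplasmic values. An alternative test, limma-voom (limma 3.58.1), used the recovered counts of genes with a mean of at least 20.

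Differences between an antisense and its sense gene have a 99% interval from the root of the summed squared standard errors. Features and positions came from GENCODE 44 and the hg38 sequence. Named genes were the 10 with the highest mean, the 8 called with the largest change in each direction, the 8 opposite pairs with the largest difference, a list of known antisense lncRNAs, and those beside the minimum mean. Members and lists were chosen with earlier results of these data known. Alternatives were 2 scales, Bonferroni adjustment, other thresholds and minimum means, limma-voom, also with a replicate block under both possible pairings, and leaving out each library. A gene of the list of known antisense lncRNAs is not reported here.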

Additional observations from a re-analysis of the deposited data

How the results depend on the processing

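All 180 calls of antisense lncRNA genes kept their direction and their side of the threshold under limma-voom on the recovered counts (153 nuclear, 44 cytoplasmic). They also did so when each library was left out in turn, with 147 to 151 nuclear and 41 to 43 cytoplasmic calls, where the lone library of a fraction was assumed to vary like the others. Scaling to equal library totals kept 169 of the 180 calls, gave 164 nuclear and 26 cytoplasmic calls, and moved the median log2 fold change from -1.66 to -2.32. Bonferroni adjustment kept 161 calls (131 nuclear, 30 cytoplasmic) and lost 19, SBF2-AS1, DHRS4-AS1, ZNF561-AS1 and LOXL1-AS1 among them, and a log2 fold change over 1 in size kept 170. Under equal totals the cytoplasmic calls of sense genes fell from 71 to 41. Raising the minimum mean to 500 left 47 genes, with 38 nuclear and 7 cytoplasmic calls and a median of -2.66. In their 47 pairs the difference had a median of -2.48, with 31 intervals below 0 and 5 above. Equal totals reversed the sign of PRKCQ-AS1 (-0.15), ZEB1-AS1 (-0.0444), HOXA-AS2 (-0.18), WARS2 (-0.64), OIP5 (-0.24), SLC16A1 (-0.46), AGAP2 (-0.14), EXOC3 (-0.47) and VPS9D1 (-0.32), none of them called before. Centring on protein-coding genes reversed WARS2 (-0.0841). Leaving out a library gave -0.101 to 0.15 for WARS2 and -0.104 to 0.089 for SGO1, which crossed 0. The cause was not tested. Without the deeper cytoplasmic library, the nuclear call of GABPB1, the sense gene of GABPB1-AS1, was lost (limma-voom adjusted p = 0.0176). The replicate number of each library is not known from the table, so the planned fit could not be tied to the labels. A replicate block was instead fitted in limma-voom under both possible pairings, an alternative chosen after seeing the data, and it kept all 180 calls, with 152 and 154 nuclear and 43 and 46 cytoplasmic calls. Depth limits the lowest cytoplasmic values, which rest on as few as 4 counts, and the replicates were 2 per fraction.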
